A study of Homo sapiens with 6 samples.

Results

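The Golgi glycosyltransferases are enzymes that add 1 sugar at a time to glycoproteins and glycolipids, and their genes were examined here in SW480 cells with and without overexpressed HNF4A. Members were chosen by a rule on gene names that uses no measured value: every row of the expression table whose name was made of 1 of 12 family prefixes (GALNT, FUT, ST3GAL, ST6GAL, ST6GALNAC, ST8SIA, B3GNT, B4GALT, B3GALT, B4GALNT, GCNT, MGAT) followed by a number and at most 1 letter from A to D. This gave 88 of the 59332 distinct names in the table, each on 1 row. The members were nevertheless chosen with earlier results of these data known. SW480 is an established human colorectal cancer cell line. HNF4A, a nuclear receptor, controls gene transcription in hepatocytes and in gut epithelium. The 2 groups were SW480 cells labelled as overexpressing HNF4a (sample titles sw480_lenti-HNF4a, 3 libraries) and SW480 cells labelled as control (sample titles sw480_lenti, 3 libraries), so both names point to a lentiviral vector. What promoter drives the transgene, and whether a group was 1 clone or a pool, is not stated in the labels. RNA was sequenced as paired ends and the values are FPKM, which scales fragments by transcript length and library size, so levels of different genes are compared here per unit of length.

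Glycans are built as the protein or lipid passes through the Golgi, where each enzyme uses an activated sugar and the product of the previous enzyme. O-glycans of mucins start with N-acetylgalactosamine on serine or threonine and are then extended into cores and branches, while N-glycans arrive from the endoplasmic reticulum already assembled and are trimmed and branched. Both kinds, and glycolipids, are lengthened with galactose and N-acetylglucosamine and capped with fucose or sialic acid, and the caps form the blood group and Lewis antigens. In the colon these sugars make up much of the mucus and of the epithelial surface, and altered capping is a known feature of colorectal cancer.

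HNF4A was measured at 1143, 720.6 and 851.9 FPKM in the overexpressing libraries, against 8.81, 6.57 and 7.47 FPKM in the control libraries, which matches all 6 labels (log2 change 6.70, SE 0.16, limma adjusted p = 9.93e-07, exact two-sided permutation p = 0.1, the smallest that 3 against 3 libraries allow). FPKM summed to 615594 to 652879 per library, and read depth is unknown. Of 11 markers of colorectal epithelium, 7 passed the filter on low values. Of these, 2 rose, CDH1 and VIL1 (limma adjusted p of 0.00522 and 0.00182), where 4.79 percent of all tested genes were called. The summed level of the 11 was 4781 to 5329 FPKM with HNF4A and 5318 to 6029 FPKM in control. EPCAM averaged 180.1 FPKM with HNF4A and 175.8 FPKM in control, and KRT8 averaged 2112 FPKM with HNF4A and 2259 FPKM in control, while CDH17, CDX1, KRT20 and LGALS4 stayed under the filter. KRT18 (2050 FPKM with HNF4A, 2428 FPKM in control) and KRT19 (687.1 FPKM with HNF4A, 782.1 FPKM in control) were lower with HNF4A in every library, and did not pass (limma adjusted p of 0.0956 and 0.140). CDX2 was higher in every HNF4A library, at 25.0 FPKM with HNF4A and 18.6 FPKM in control, and did not pass (limma adjusted p = 0.110). All 5 goblet cell markers were under the filter, with summed levels of 0.0935 to 0.399 FPKM with HNF4A and 0.118 to 0.256 FPKM in control, and SPINK4 and CLCA1 were listed at 0 in every library. The summed level of 5 leukocyte markers was 1.75 to 2.60 FPKM with HNF4A and 1.14 to 1.66 FPKM in control, that of 6 fibroblast markers, mostly COL1A1, 3.43 to 3.63 FPKM with HNF4A and 2.18 to 2.90 FPKM in control, and that of 3 endothelial markers 0.258 to 0.411 FPKM with HNF4A and 0.184 to 0.239 FPKM in control. These 3 sums did not overlap between the groups and were higher with HNF4A. The leukocyte gene PTPRC averaged 0.0287 FPKM with HNF4A and 0.0170 FPKM in control, the endothelial gene CDH5 was listed at 0 throughout, and the part of other cell types in the results was not tested.

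Of the 88 genes, 50 reached 1 FPKM in at least 3 libraries and were tested. Of these, 5 rose with HNF4A (B3GNT5, GALNT10, FUT2, GALNT6 and B3GNT3), 1 fell (ST6GAL1) and 44 did not pass the threshold of an adjusted p under 0.05 (limma on log2(FPKM + 1), adjusted over all 14106 tested genes). The 6 called genes are 12 percent of the 50, and among all tested genes 4.79 percent were called, 3.40 percent as higher and 1.39 percent as lower. In bulk RNA, fewer cells of a type and less RNA per cell cannot be told apart. The groups did not overlap in 16 of the 50 genes (10 higher and 6 lower), or 32 percent, against 23.8 percent of all tested genes, of which 13.8 percent were higher and 10.1 percent lower. At an unadjusted limma p under 0.05 stood 15 of the 50 genes, or 30 percent, against 18 percent of all tested genes, and counts by family at that level are to be read against this share. The median log2 change was 0.05 over the 50 genes and 0.01 over all tested genes. Of the 50, 44 reached 1 FPKM in every library. FUT2 and GALNT3 did so in all 3 HNF4A libraries but in only 1 control library, and MGAT5B and ST3GAL5 in the 3 control libraries alone, so these counts describe the expressed genes and not all 88. Of the 38 genes that were not tested, 20 stayed below 0.1 FPKM in every library and 6 reached 0.5 FPKM in some library. GALNT13, GALNT14, FUT9, ST8SIA3, B3GNT6 and MGAT4D were listed at 0 in every library. Leaving out 1 library at a time left 2 or 3 genes called as higher and 0 or 1 as lower. B3GNT5 and GALNT10 were called in every one of these 6 fits, and the other 4 genes in 0 to 2 of them.

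**Figure D1:**
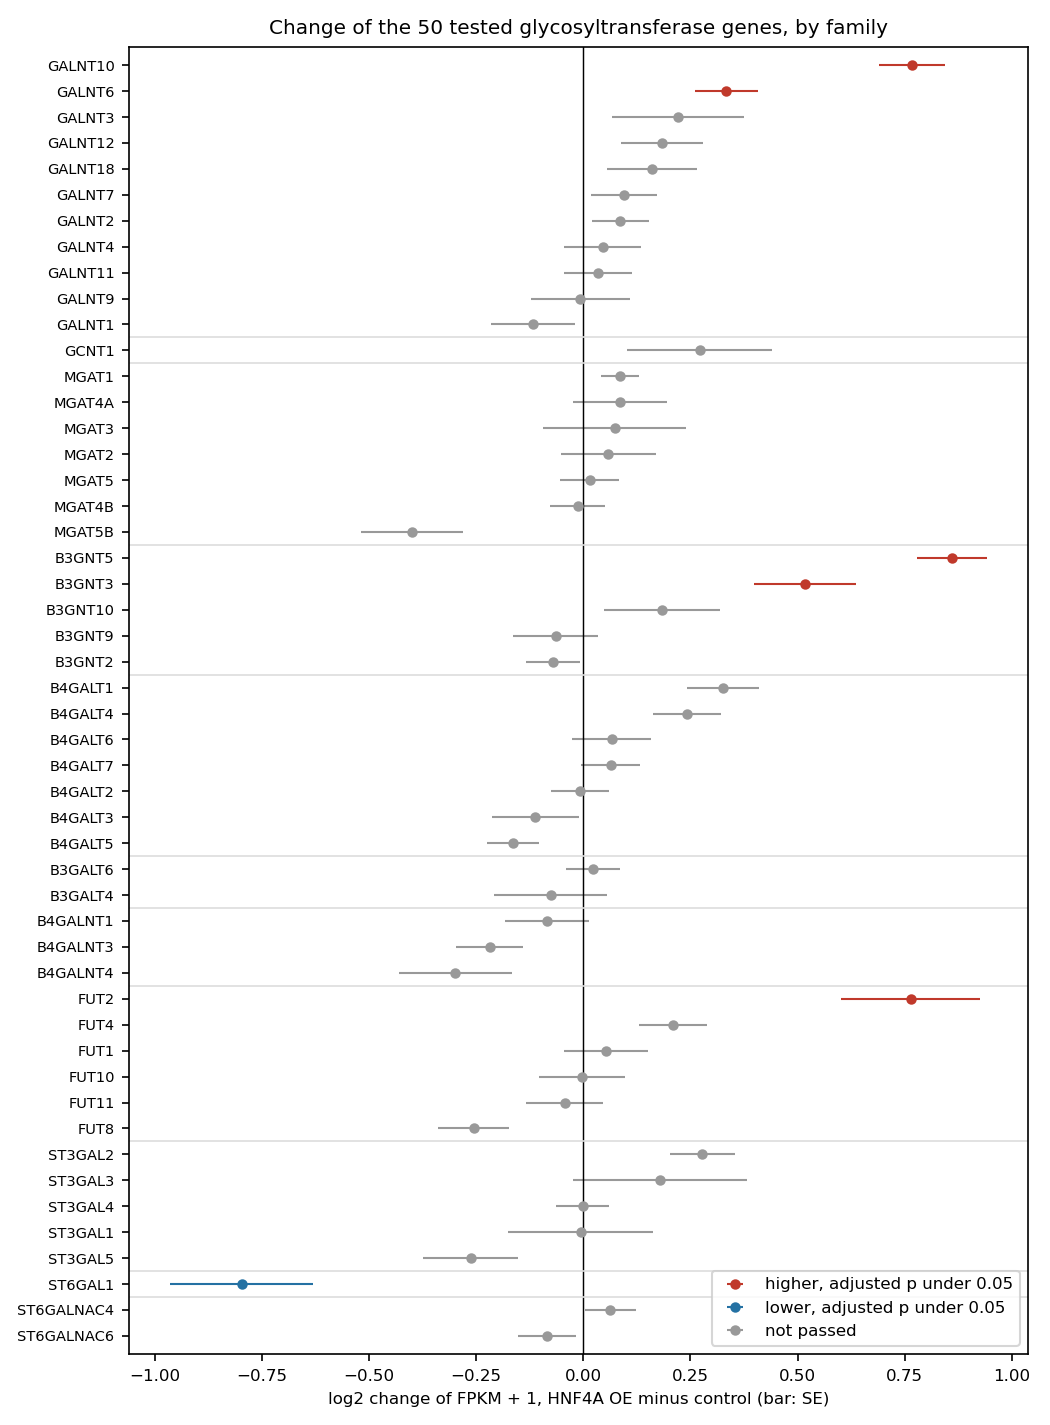
Log2 change of FPKM + 1 (HNF4A overexpression minus control, horizontal axis) for each of the 50 tested glycosyltransferase genes, grouped by family from top to bottom; points are estimates, bars are standard errors, and colour marks the 5 genes called higher and the 1 called lower. GALNT10, B3GNT5 and FUT2 stand at the right with changes of 0.77, 0.86 and 0.76, ST6GAL1 at the left with -0.80, and the 44 others lie between -0.40 and 0.33.

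The GALNT enzymes start mucin-type O-glycans by moving N-acetylgalactosamine onto serine or threonine. Of the 18 genes of this family 11 were tested, 2 rose and 0 fell. Among all tested genes 3.40 percent were called higher and 1.39 percent lower. GALNT10, which prefers peptides that already carry a sugar, was at 13.3, 15.7 and 15.0 FPKM in the HNF4A libraries and at 8.61, 8.13 and 7.83 FPKM in the control libraries. Every HNF4A library lay above every control library, and the ratio of means was 1.79 (log2 change 0.77, SE 0.08, limma adjusted p = 0.00176). GALNT6, the most abundant gene of the family, was at 48.6, 45.0 and 41.7 FPKM with HNF4A and at 34.5, 38.4 and 33.8 FPKM in control. The groups were separate but close, with a ratio of means of 1.27 (log2 change 0.33, SE 0.07, limma adjusted p = 0.0409). When 1 library was left out its call held only without HNF4A replicate 3 (adjusted p = 0.0394) or control replicate 2 (0.0469), and was lost without any of the other 4 libraries (limma adjusted p of 0.114 to 0.127). The call was also lost without a filter (limma adjusted p = 0.154) and without the mean-variance trend (0.0792).

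The other 9 tested GALNT genes did not pass. GALNT2, a broadly expressed initiating enzyme, averaged 19.7 ± 0.525 FPKM with HNF4A and 18.5 ± 1.34 FPKM in control (SD, n = 3 each). GALNT7, which like GALNT10 acts on partly glycosylated peptides, averaged 14.6 ± 0.862 FPKM with HNF4A and 13.7 ± 1.10 FPKM in control. The test of GALNT7 gave a log2 change of 0.09 (SE 0.08, limma adjusted p = 0.600), so this second follow-on enzyme is not shown to have moved with GALNT10. GALNT12, which is known for its expression in normal colon, averaged 7.42 ± 0.628 FPKM with HNF4A and 6.42 ± 0.689 FPKM in control (limma adjusted p = 0.375). Among genes under the filter, GALNT5 was at 0.495, 0.570 and 0.588 FPKM with HNF4A and at 0.227, 0.135 and 0.181 FPKM in control. These low values do not overlap, and GALNT5 passed only when the filter was dropped altogether (limma adjusted p = 0.0463). GALNT8 lay the other way, at 0.168, 0.117 and 0.133 FPKM with HNF4A and at 0.328, 0.288 and 0.371 FPKM in control, and did not pass in that fit (limma adjusted p = 0.0934).

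**Figure D2:**
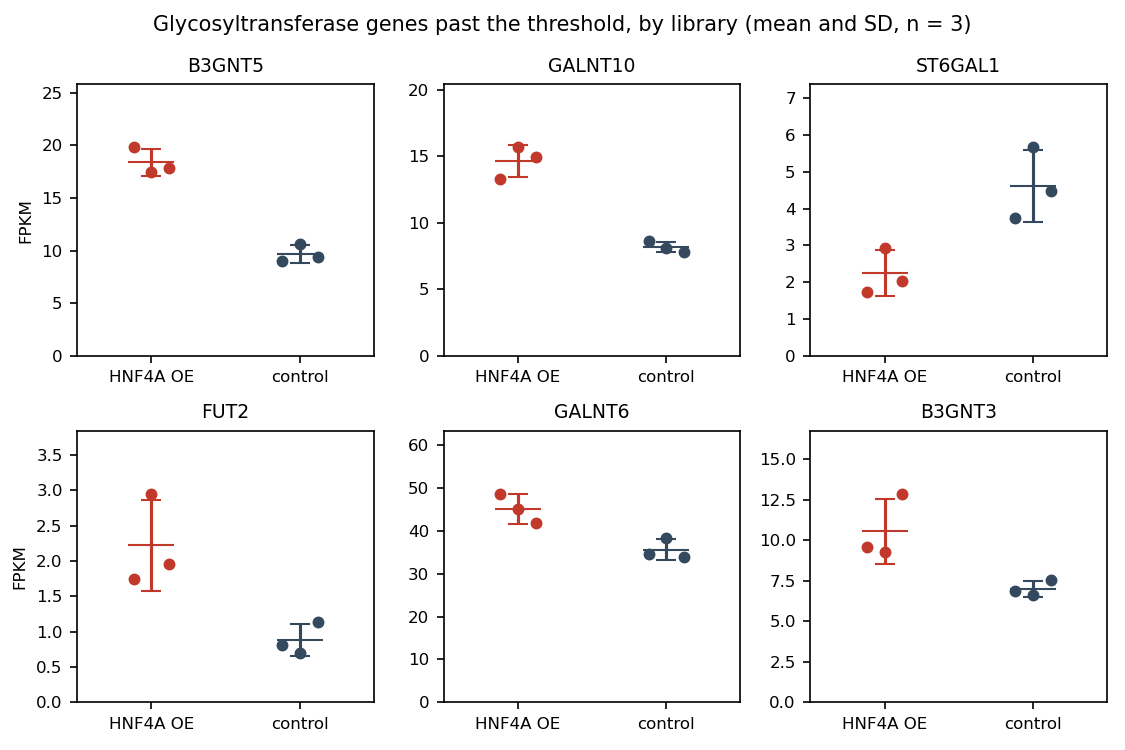
FPKM (vertical axis, from 0) of the 6 genes past the threshold, with 1 point per library, a horizontal mark at the mean and bars of 1 SD; the 3 HNF4A overexpression libraries are on the left of each panel and the 3 control libraries on the right. In each panel the points of the 2 groups are separate, most widely for B3GNT5 (17.5 to 19.8 with HNF4A, 8.97 to 10.7 in control) and most narrowly for GALNT6 (41.7 to 48.6 with HNF4A, 33.8 to 38.4 in control).

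The GCNT enzymes add branching N-acetylglucosamine, and the core 2 branch of O-glycans is their main product. Of 5 genes only GCNT1, a core 2 enzyme, was tested, and the other 4 stayed under 0.5 FPKM in every library. It was at 1.98, 1.98 and 2.81 FPKM with HNF4A and at 1.56, 1.25 and 2.34 FPKM in control. These overlap (log2 change 0.27, SE 0.17, limma adjusted p = 0.465). GCNT3, the mucin-type core 2 and core 4 enzyme of the gut, was at 0.0125, 0.00653 and 0.169 FPKM with HNF4A and was listed at 0 in every control library. GCNT2, which makes the branched I antigen, reached at most 0.348 FPKM. GCNT7, whose substrate is little studied, was at 0.184, 0.120 and 0.178 FPKM with HNF4A and at 0.259, 0.187 and 0.193 FPKM in control, too low to test. B3GNT6, the enzyme that makes the core 3 O-glycan typical of normal colon, was among the genes listed at 0.

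The MGAT enzymes set the number of antennae on N-glycans. They included the most abundant glycosyltransferases of the whole set, and 0 of the 7 tested genes passed (limma, with 0 higher and 1 lower at an unadjusted p under 0.05, against 18 percent of all tested genes). MGAT4B, which adds a beta-1,4 branch, was at 103, 98.7 and 95.7 FPKM with HNF4A and at 110, 96.9 and 94.4 FPKM in control. MGAT5, which adds the beta-1,6 branch long studied in carcinoma, was at 89.1, 87.0 and 101 FPKM with HNF4A and at 87.3, 90.3 and 96.6 FPKM in control. In both genes the groups overlap, and the log2 changes were -0.01 (SE 0.07) and 0.01 (SE 0.07). MGAT1, which opens the pathway to hybrid and complex N-glycans, was at 44.8, 45.1 and 44.0 FPKM with HNF4A and at 42.2, 41.8 and 42.0 FPKM in control. Its groups did not overlap, but the difference was small (log2 change 0.09, SE 0.04, limma adjusted p = 0.365). MGAT2, which starts the second antenna, averaged 2.16 ± 0.184 FPKM with HNF4A and 2.04 ± 0.297 FPKM in control. Its level is uncertain, since the antisense gene AL139099.1, at 16.1 FPKM with HNF4A and 16.03 FPKM in control, covers 91.9 percent of its exonic bases. MGAT3, the enzyme of the bisecting residue, averaged 1.92 ± 0.429 FPKM with HNF4A and 1.79 ± 0.538 FPKM in control. MGAT5B, a relative of MGAT5 known from brain, was at 0.490, 0.775 and 0.661 FPKM with HNF4A and at 1.06, 1.17 and 1.26 FPKM in control. All its HNF4A libraries lay below its control libraries, and the call depended on the variance model (limma adjusted p = 0.110, and 0.0454 without the mean-variance trend).

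The B3GNT enzymes add N-acetylglucosamine in beta-1,3 linkage to galactose and so start or extend chains. Of 9 genes 5 were tested, 2 rose and 0 fell, where 3.40 percent of all tested genes were called higher and 1.39 percent lower. B3GNT5, which makes lactotriaosylceramide and so opens the lacto and neolacto glycolipids, was at 19.8, 17.5 and 17.8 FPKM with HNF4A and at 8.97, 10.7 and 9.40 FPKM in control. All HNF4A libraries lay far above all control libraries, with a ratio of means of 1.90 and the smallest adjusted p among the 50 tested members (log2 change 0.86, SE 0.08, limma adjusted p = 0.00148). B3GNT3, which extends core 1 O-glycans, was at 9.56, 9.25 and 12.9 FPKM with HNF4A and at 6.86, 6.62 and 7.55 FPKM in control. HNF4A replicate 3 stood above its 2 companions, and the change was 1.51 times by means (log2 change 0.52, SE 0.12, limma adjusted p = 0.0497). This call lay at the threshold. It was lost when any of the 6 libraries was left out (limma adjusted p of 0.0625 to 0.150) and after median-ratio scaling of the libraries (0.0501). The same held without a filter (limma adjusted p = 0.192) and with a filter at 0.5 FPKM (0.0578). Quantile normalization (0.0536) and a fit without the mean-variance trend (0.0718) also lost it.

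B3GNT2, the main enzyme of poly-N-acetyllactosamine, was at 18.7, 19.5 and 21.1 FPKM with HNF4A and at 21.5, 20.7 and 20.2 FPKM in control. The groups overlap, and the log2 change was -0.07 (SE 0.06, limma adjusted p = 0.630). With HNF4A the 3 B3GNT5 libraries (17.5 to 19.8 FPKM) overlapped those of B3GNT2 (18.7 to 21.1 FPKM), whereas in control every B3GNT5 library (8.97 to 10.7 FPKM) lay below every B3GNT2 library (20.2 to 21.5 FPKM). B3GNT4 was under the filter, at 0.514, 0.640 and 0.621 FPKM with HNF4A and at 0.598, 1.18 and 0.898 FPKM in control. Exons of DIABLO on the opposite strand cover at least 20.7 percent of its exonic bases. DIABLO averaged 32.0 FPKM with HNF4A and 30.0 FPKM in control, so the low level of B3GNT4 is uncertain. B3GNT7, a keratan sulfate enzyme, was also under the filter, at 0.334 ± 0.0604 FPKM with HNF4A and 0.203 ± 0.0390 FPKM in control.

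The B4GALT enzymes add galactose in beta-1,4 linkage and make N-acetyllactosamine, lactosylceramide or the linker of proteoglycans. All 7 genes were tested and 0 passed (limma, with 2 higher and 1 lower at an unadjusted p under 0.05, against 18 percent of all tested genes). B4GALT5, a lactosylceramide synthase and the most abundant of the family, was at 50.9, 55.3 and 56.4 FPKM with HNF4A and at 57.6, 64.0 and 60.8 FPKM in control. The groups were separate by a small margin (log2 change -0.16, SE 0.06, limma adjusted p = 0.198). B4GALT1, the main N-acetyllactosamine synthase, was at 15.9, 15.8 and 18.2 FPKM with HNF4A and at 11.8, 13.4 and 14.0 FPKM in control. All HNF4A libraries lay above all control libraries, but the gene missed the threshold (log2 change 0.33, SE 0.08, limma adjusted p = 0.0712). B4GALT4 gave a similar picture at 13.9 ± 0.305 FPKM with HNF4A and 11.7 ± 1.23 FPKM in control (SD, n = 3 each, limma adjusted p = 0.145). B4GALT2, at 19.6 ± 0.400 FPKM with HNF4A and 19.8 ± 1.59 FPKM in control, had a log2 change of -0.01 (SE 0.07).

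The B3GALT and B4GALNT families gave 0 calls in 2 and 3 tested genes (limma, with 0 of 2 and 1 of 3 at an unadjusted p under 0.05). B3GALT6, which like B4GALT7 builds the proteoglycan linker, held 93.1 percent of the summed B3GALT level with HNF4A and 90.5 percent in control, with means of 19.9 ± 1.22 FPKM with HNF4A and 19.5 ± 0.582 FPKM in control. B3GALT4, a ganglioside galactosyltransferase, averaged 0.968 ± 0.266 FPKM with HNF4A and 1.06 ± 0.0854 FPKM in control. B3GALT5, which makes the type 1 chains that carry Lewis a in the gut, was under the filter at 0.418, 0.414 and 0.613 FPKM with HNF4A and 0.807, 0.882 and 1.20 FPKM in control. Its HNF4A libraries all lay below its control libraries, and in the fit that admitted genes at 0.5 FPKM it did not pass (limma adjusted p = 0.121). The 3 tested B4GALNT genes all had negative estimates that did not pass. B4GALNT4 averaged 9.02 ± 1.99 FPKM with HNF4A and 11.2 ± 0.525 FPKM in control, and B4GALNT3, which like it makes the LacdiNAc unit, was at 7.68, 8.69 and 7.60 FPKM with HNF4A and at 10.0, 9.37 and 8.97 FPKM in control. B4GALNT3 was lower in every HNF4A library than in any control library (log2 change -0.22, SE 0.08, limma adjusted p = 0.180).

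The FUT enzymes add fucose. Of 11 genes 6 were tested, 1 rose and 0 fell, against 3.40 percent higher and 1.39 percent lower among all tested genes. FUT2, the secretor enzyme that makes the H antigen in mucosal epithelium, was at 1.74, 2.95 and 1.97 FPKM with HNF4A and at 0.806, 0.700 and 1.14 FPKM in control. The lowest HNF4A library lay above the highest control library, and the ratio of means, 2.52, was the largest of the 6 called genes (log2 change 0.76, SE 0.16, limma adjusted p = 0.0368). The gene is near 1 FPKM, where the log2(FPKM + 1) scale understates a change. It reached 1 FPKM in all 3 HNF4A libraries and in only 1 control library. It therefore passed the filter through the group where it was higher. When 1 library was left out the call held only without HNF4A replicate 1 (limma adjusted p = 0.0480) and otherwise gave 0.0553 to 0.117. The call was also lost without a filter (limma adjusted p = 0.174) and with quantile normalization (0.0509). FUT1, which makes the same H structure on other chains and lies 42060 bases from FUT2, was at 4.53, 5.15 and 4.76 FPKM with HNF4A and at 4.10, 4.52 and 5.24 FPKM in control. These overlap (log2 change 0.05, SE 0.10, limma adjusted p = 0.842).

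FUT8, the core fucosyltransferase of N-glycans and the most abundant gene of the family, was at 14.4, 12.9 and 15.3 FPKM with HNF4A and at 18.4, 17.4 and 15.7 FPKM in control. The groups were separate by a small margin, without passing the test (log2 change -0.26, SE 0.08, limma adjusted p = 0.142). FUT4, a Lewis x enzyme, lay the other way at 7.79, 6.69 and 6.95 FPKM with HNF4A and 6.07, 5.83 and 6.19 FPKM in control (log2 change 0.21, SE 0.08, limma adjusted p = 0.205). The Lewis enzymes FUT3, FUT5 and FUT6, which are near-identical neighbours whose fragments can be confused, reached at most 0.152, 0.0136 and 0.0496 FPKM, and FUT7, which completes sialyl Lewis x, at most 0.136 FPKM. FUT5 also shares 82.5 percent of its exonic bases with AC024592.3 on the same strand (3.18 FPKM with HNF4A, 2.90 FPKM in control), so its level is uncertain. At these levels no difference could be detected. FUT10 and FUT11 averaged 3.53 and 5.88 FPKM with HNF4A and 3.55 and 6.08 FPKM in control.

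Sialyltransferases cap the chains. The gene that fell was ST6GAL1, which adds alpha-2,6-linked sialic acid to N-glycans. It was at 1.74, 2.94 and 2.05 FPKM with HNF4A and at 3.74, 5.67 and 4.47 FPKM in control. The highest HNF4A library lay below the lowest control library, and the ratio of means was 0.485 (log2 change -0.80, SE 0.17, limma adjusted p = 0.0354). Its call held without HNF4A replicate 2 (limma adjusted p = 0.0273) or control replicate 1 (0.0405) and was lost without any of the other 4 libraries (0.0905 to 0.106). The call was also lost without the mean-variance trend (limma adjusted p = 0.0507) and without a filter (0.177). ST6GAL2, the only relative of ST6GAL1, reached at most 0.00516 FPKM.

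The 5 tested ST3GAL genes, which add alpha-2,3-linked sialic acid, all missed the threshold of limma, with 1 higher and 1 lower at an unadjusted p under 0.05, against 18 percent of all tested genes. ST3GAL4, which acts on N-acetyllactosamine and competes with ST6GAL1 for such ends, was at 15.8, 15.0 and 16.5 FPKM with HNF4A and at 15.1, 16.1 and 16.03 FPKM in control, so its groups overlap (SE of the log2 change 0.06). ST3GAL4 exceeded ST6GAL1 in both groups, and the summed ST3GAL level was 35.6 ± 1.43 FPKM with HNF4A and 34.1 ± 2.10 FPKM in control beside a summed ST6GAL level of 2.24 ± 0.620 FPKM with HNF4A and 4.63 ± 0.976 FPKM in control. ST3GAL2, a core 1 and ganglioside sialyltransferase, was at 8.50, 8.24 and 7.77 FPKM with HNF4A and at 6.84, 6.10 and 6.77 FPKM in control. The groups did not overlap, and the gene passed under none of the 15 alternatives run (log2 change 0.28, SE 0.08, limma adjusted p = 0.0839, range 0.0758 to 0.231). ST3GAL5, the GM3 synthase, was at 0.661, 0.877 and 0.766 FPKM with HNF4A and at 1.03, 1.15 and 1.18 FPKM in control (limma adjusted p = 0.260). ST3GAL6 was under the filter, at 0.439, 0.898 and 0.617 FPKM with HNF4A and at 0.684, 1.04 and 1.18 FPKM in control. Exons of DCBLD2 on the opposite strand cover 3.74 percent of its exonic bases. DCBLD2 averaged 76.8 FPKM with HNF4A and 102 FPKM in control, so the low level of ST3GAL6 is uncertain.

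Of the ST6GALNAC genes, which sialylate the inner N-acetylgalactosamine, 2 of 6 were tested and 0 passed (limma, 0 also at an unadjusted p under 0.05). ST6GALNAC4 averaged 20.8 ± 1.09 FPKM with HNF4A and 19.9 ± 0.447 FPKM in control, and ST6GALNAC6 averaged 9.15 ± 0.143 FPKM with HNF4A and 9.77 ± 0.561 FPKM in control (SD, n = 3 each). ST6GALNAC1, the enzyme of the tumour antigen sialyl-Tn, reached at most 0.0611 FPKM in any library. ST6GALNAC3 was listed at 0 in the 3 HNF4A libraries and at 0.124, 0.139 and 0.0441 FPKM in control, and ST6GALNAC5 was at 0.707, 0.476 and 0.352 FPKM with HNF4A and at 0.984, 0.733 and 0.427 FPKM in control. The 6 ST8SIA genes, which build chains of sialic acid, were all under the filter. ST8SIA1, the GD3 synthase, was the highest of them, at 0.169, 0.0404 and 0.133 FPKM with HNF4A and at 0.210, 0.0985 and 0.529 FPKM in control, and the groups overlap. ST8SIA5, a ganglioside enzyme, averaged 0.0432 FPKM with HNF4A and 0.0430 FPKM in control.

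**Figure D3:**
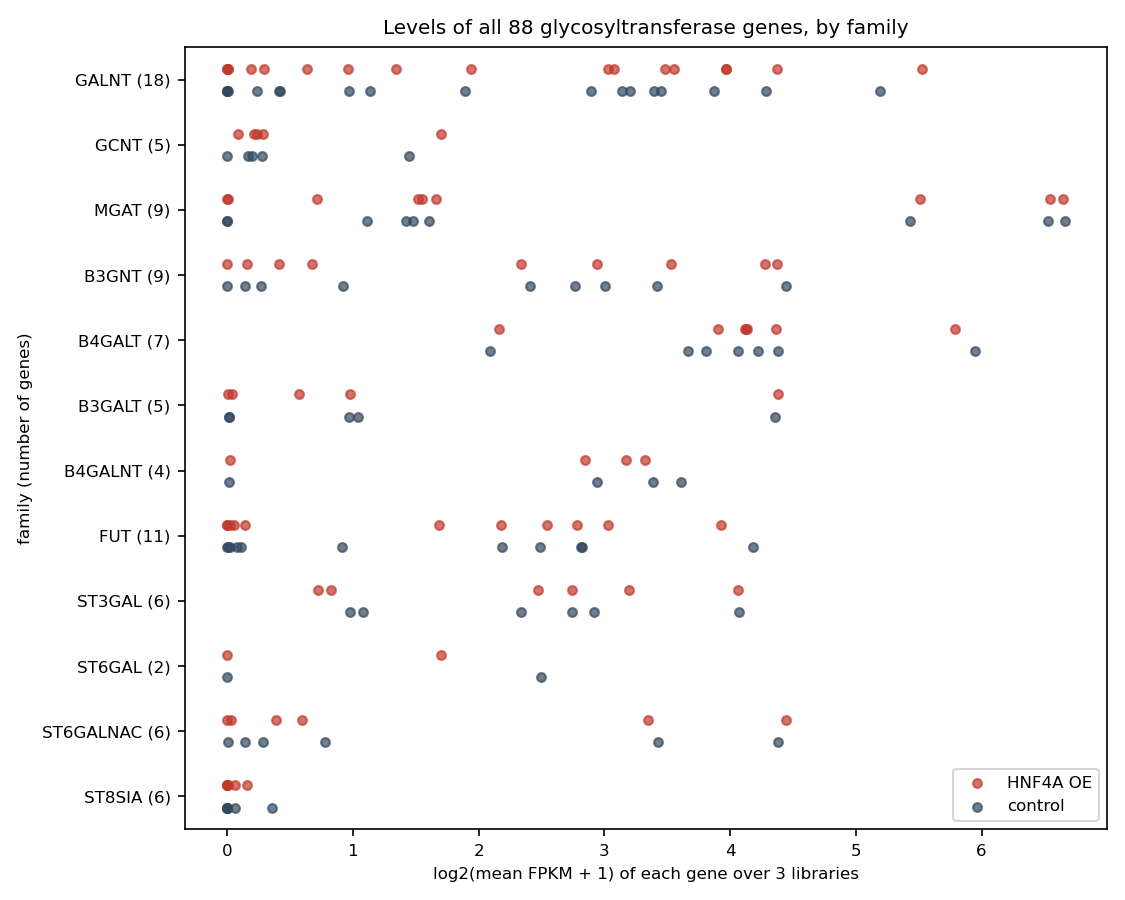
Mean level of every one of the 88 genes as log2(mean FPKM + 1) (horizontal axis), with 1 row per family and the number of genes in brackets; in each row the upper points are HNF4A overexpression and the lower points control. MGAT4B and MGAT5 are highest in both groups, ahead of B4GALT5, while the 6 ST8SIA genes sit near 0.

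Levels were also summed over the members of each family, where the most abundant genes weigh most. The GALNT sum was 141, 133 and 134 FPKM with HNF4A and 113, 117 and 116 FPKM in control, a ratio of 1.18 with separate groups. The B3GNT sum was 59.3, 58.9 and 63.3 FPKM with HNF4A and 46.9, 49.3 and 50.1 FPKM in control, a ratio of 1.24, also with separate groups. The ST6GAL sum, which is almost wholly ST6GAL1, had a ratio of 0.485. The B4GALNT sum was lower in every HNF4A library, at 21.3, 24.0 and 24.5 FPKM with HNF4A and 26.7, 28.0 and 27.2 FPKM in control (ratio 0.851). The MGAT, B4GALT, FUT, B3GALT, ST3GAL and ST6GALNAC sums had ratios between 0.987 and 1.04 with overlapping groups. The GCNT sum also overlapped (ratio 1.31), and the ST8SIA sum reached at most 0.195 FPKM with HNF4A and 0.553 FPKM in control. Within the FUT family the share of FUT8, its most abundant gene, was 37.4 percent with HNF4A and 44.6 percent in control, and within the B3GNT family the share of B3GNT2 was 32.7 percent with HNF4A and 42.6 percent in control. The GALNT, B3GNT, FUT and ST6GAL sums and shares include the called genes of those families, so they are not support apart from those genes. No p is given for these sums.

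**Figure D4:**
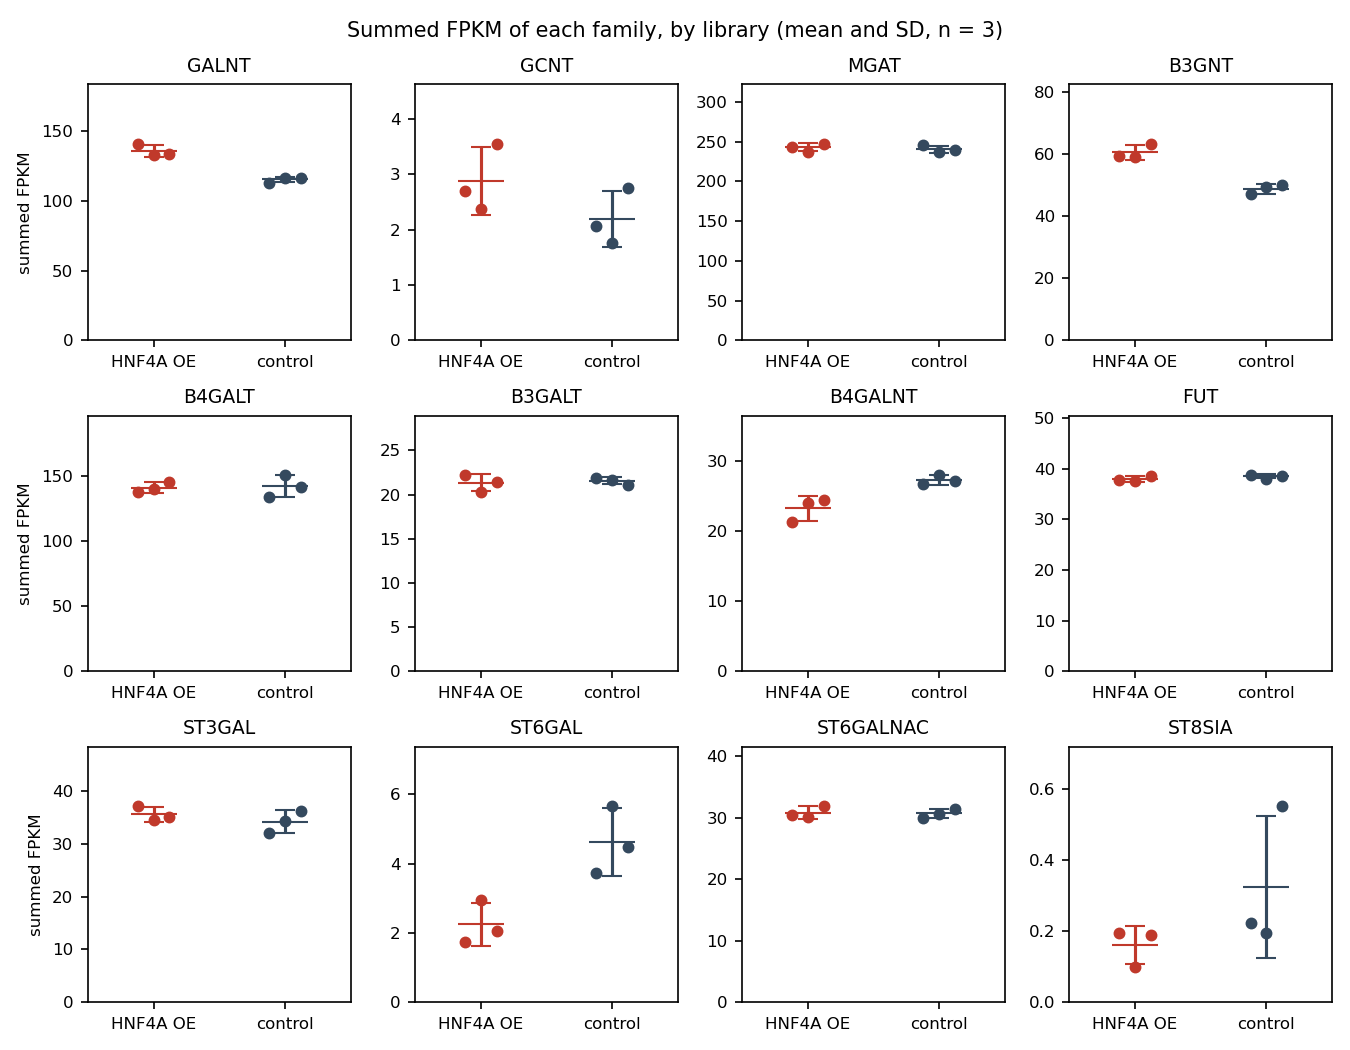
Summed FPKM of each of the 12 families (vertical axis, from 0), 1 point per library with the mean and bars of 1 SD; HNF4A overexpression is on the left and control on the right of each panel. The GALNT and B3GNT points are higher and the ST6GAL and B4GALNT points lower with HNF4A, without overlap, while the MGAT, B4GALT and FUT points overlap.

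The 6 called genes lie apart in the genome. In GENCODE 29 (GRCh38), B3GNT5 is on chromosome 3 from 183253244 to 183298504 and ST6GAL1 on chromosome 3 from 186930485 to 187078553, GALNT10 on chromosome 5 from 154190730 to 154420984, GALNT6 on chromosome 12 from 51351247 to 51392867, and B3GNT3 and FUT2 on chromosome 19 from 17794828 to 17813082 and from 48695971 to 48705950. All are protein-coding, GALNT6 on the minus strand and the others on the plus strand. Since use of strand in the counting is not stated, reads of overlapping genes cannot be told apart. Exons of MCF2L2 on the opposite strand cover 16.2 percent of the exonic bases of B3GNT5, and MCF2L2 averaged 1.21 FPKM with HNF4A and 0.849 FPKM in control. SLC4A8 on the opposite strand covers 5.34 percent of those of GALNT6 (4.68 FPKM with HNF4A, 3.54 FPKM in control), and MFAP3 on the same strand covers 1.15 percent of those of GALNT10 (13.0 FPKM with HNF4A, 12.9 FPKM in control). In that annotation no exon of another gene overlaps those of FUT2, B3GNT3 or ST6GAL1. Among the genes that did not pass, GALNT4 shares 93.2 percent of its exonic bases with POC1B-GALNT4, so its level, 2.83 FPKM with HNF4A and 2.72 FPKM in control, is uncertain, as is that of ST6GALNAC6, which shares 47.0 percent with AL157935.2. GALNT8 shares 43.9 percent with KCNA6, which was near 0 (0.0144 FPKM with HNF4A, 0.0224 FPKM in control). It also shares 18.8 percent with AC005833.1 on the same strand (5.99 FPKM with HNF4A, 5.13 FPKM in control), so the low level of GALNT8 is uncertain.

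Promoter windows from RefSeq (GRCh38.p14), running from 250 bases before to 50 bases after a gene's start, were searched on both strands for CAAAGTNCA, the letters of a well-known HNF4 binding motif. Windows were matched for 62 of the 88 members, and GALNT6 is 1 of the 26 that were not matched. The motif was in a window of 2 of the 62 members, FUT2 and MGAT4B. By window these are 2 of the 106 windows of members, or 1.89 percent, against 1.10 percent of all 35116 windows. In both it is on the strand opposite to the gene. It reads CAAAGTCCA in FUT2, 112 bases before the start, and CAAAGTTCA in MGAT4B, 191 bases before the start of that window. MGAT4B has another window at chr5:179806817-179807116, which spans the start of the gene in GENCODE 29 and lacks the motif, whereas the window with the motif lies inside the annotated gene. FUT2 rose, and MGAT4B did not pass. The looser form CAAAGNNCA, which contains the first, was in 7 of the 106 windows, each of another member (6.60 percent, against 5.28 percent of all windows), and FUT2 alone of these members was called. The DR1 element, a direct repeat of AGGTCA with 1 base between, was in 0 of the 106 windows, against 0.0228 percent of all windows. A match is a description of letters and not of binding. The windows of both members that hold the first motif and of the other called members with a matched window are shown 5′ to 3′ on the gene's strand, with the motif in capitals.
FUT2, chr19:48695721-48696020, plus strand: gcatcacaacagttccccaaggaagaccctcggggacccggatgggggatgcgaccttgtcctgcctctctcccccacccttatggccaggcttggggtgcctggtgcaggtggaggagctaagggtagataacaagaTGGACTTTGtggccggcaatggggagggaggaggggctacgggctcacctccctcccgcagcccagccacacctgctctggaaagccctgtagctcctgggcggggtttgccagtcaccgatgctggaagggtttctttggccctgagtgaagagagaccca
MGAT4B, chr5:179802826-179803125, minus strand: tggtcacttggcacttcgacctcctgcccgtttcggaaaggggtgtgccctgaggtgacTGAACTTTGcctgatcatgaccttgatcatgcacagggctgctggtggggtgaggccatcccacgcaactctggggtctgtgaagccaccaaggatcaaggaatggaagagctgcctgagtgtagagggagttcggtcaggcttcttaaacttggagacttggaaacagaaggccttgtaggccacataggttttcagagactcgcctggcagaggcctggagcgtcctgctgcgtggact
B3GNT5, chr3:183253003-183253302, plus strand: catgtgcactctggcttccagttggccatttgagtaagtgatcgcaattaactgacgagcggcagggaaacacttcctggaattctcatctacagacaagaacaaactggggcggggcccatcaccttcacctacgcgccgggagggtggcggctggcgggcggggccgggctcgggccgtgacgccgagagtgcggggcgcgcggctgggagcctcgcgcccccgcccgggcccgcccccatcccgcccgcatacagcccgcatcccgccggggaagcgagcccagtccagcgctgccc
GALNT10, chr5:154190483-154190782, plus strand: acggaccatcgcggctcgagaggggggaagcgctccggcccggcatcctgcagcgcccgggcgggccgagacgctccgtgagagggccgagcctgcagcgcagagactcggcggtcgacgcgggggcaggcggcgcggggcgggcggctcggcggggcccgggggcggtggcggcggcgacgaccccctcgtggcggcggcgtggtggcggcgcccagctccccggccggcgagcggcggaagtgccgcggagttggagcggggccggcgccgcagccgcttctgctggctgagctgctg
ST6GAL1, chr3:186930276-186930575, plus strand: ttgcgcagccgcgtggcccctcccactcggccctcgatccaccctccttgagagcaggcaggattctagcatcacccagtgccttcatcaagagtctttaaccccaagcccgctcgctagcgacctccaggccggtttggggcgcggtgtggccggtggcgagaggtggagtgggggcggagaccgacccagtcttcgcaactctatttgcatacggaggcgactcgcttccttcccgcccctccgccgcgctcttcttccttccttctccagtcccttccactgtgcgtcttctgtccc
B3GNT3, chr19:17794888-17795187, plus strand: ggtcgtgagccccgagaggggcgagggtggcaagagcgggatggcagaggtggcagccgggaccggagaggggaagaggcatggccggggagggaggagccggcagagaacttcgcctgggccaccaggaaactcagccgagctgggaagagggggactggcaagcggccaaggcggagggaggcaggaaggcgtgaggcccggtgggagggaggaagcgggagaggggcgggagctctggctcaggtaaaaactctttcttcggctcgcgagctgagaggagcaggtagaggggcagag
In the windows of B3GNT5, GALNT10, ST6GAL1 and B3GNT3 the letters of CAAAGTNCA do not occur. The B3GNT3 window lies inside the gene as annotated in GENCODE 29, which starts at 17794828, so the bases before that start were not searched. These windows are rich in G and C, at 69.0 percent in B3GNT5, 81.0 percent in GALNT10, 64.0 percent in ST6GAL1 and 68.3 percent in B3GNT3, and the median was 66.0 percent over the 106 windows of members and 58.7 percent over all windows.

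Chosen with earlier results of these data known, 11 lists of other glycan genes gave genes that supply or use the same pathway, 164 in all. Of the 135 that were tested 4 rose and 0 fell (limma, with 13 higher and 4 lower at an unadjusted p under 0.05, where 18 percent of all tested genes stood), or 2.96 percent called against the 4.79 percent of all tested genes, with a median log2 change of 0.03. MAN1A1, a Golgi mannosidase that trims N-glycans before MGAT1 acts, was at 13.3, 11.0 and 10.9 FPKM with HNF4A and at 3.87, 3.94 and 4.57 FPKM in control. The groups were far apart (log2 change 1.31, limma adjusted p = 6.12e-04), and it was 1 of 11 tested trimming genes and the only one called. MUC16, a membrane mucin, was at 2.73, 2.13 and 2.45 FPKM with HNF4A and at 0.864, 1.14 and 0.973 FPKM in control (log2 change 0.78, limma adjusted p = 0.00755), and it reached 1 FPKM in only 1 control library.

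GMPPA, a regulatory subunit of the enzyme that makes GDP-mannose, was at 31.3, 31.0 and 32.2 FPKM with HNF4A and at 26.2, 26.4 and 27.1 FPKM in control (limma adjusted p = 0.0323), the 1 call among 25 tested genes of nucleotide sugar synthesis. FUCA2, a secreted fucosidase, was at 52.6, 48.4 and 49.4 FPKM with HNF4A and at 42.8, 43.1 and 40.1 FPKM in control (limma adjusted p = 0.0399). Among 13 tested transporters of nucleotide sugars, 27 genes of the N-glycan precursor and its transfer, 19 of the Golgi scaffold, 15 of glycosaminoglycan synthesis, 11 of O-glycan cores and other transferases, 4 galectins and 2 genes of the first glycolipid steps, 0 passed limma's threshold. C1GALT1, which makes the core 1 O-glycan that B3GNT3 extends and ST3GAL1 caps, averaged 12.5 ± 0.896 FPKM with HNF4A and 14.4 ± 0.985 FPKM in control (limma adjusted p = 0.243), and its chaperone C1GALT1C1 averaged 23.8 ± 1.23 FPKM with HNF4A and 23.2 ± 1.70 FPKM in control. UGCG, which makes the glucosylceramide from which B4GALT5 and B3GNT5 build, averaged 44.1 ± 1.14 FPKM with HNF4A and 40.0 ± 4.61 FPKM in control (limma adjusted p = 0.420). Of 15 mucin genes, the usual acceptors of O-glycans, 4 were tested, MUC16 among them. MUC12 averaged 4.84 ± 0.436 FPKM with HNF4A and 3.26 ± 0.680 FPKM in control. It was higher in every HNF4A library and did not pass (limma adjusted p = 0.0825). MUC13 averaged 4.90 ± 1.52 FPKM with HNF4A and 3.29 ± 1.23 FPKM in control, with overlapping groups (limma adjusted p = 0.369). MUC1 averaged 2.28 ± 0.348 FPKM with HNF4A and 2.30 ± 0.449 FPKM in control, and the secreted mucin MUC5AC averaged 0.0131 FPKM with HNF4A and 0.0156 FPKM in control. MUC2, the main mucin of colonic mucus, was at 0.320, 0.0196 and 0.0232 FPKM with HNF4A and at 0.0174, 0.0220 and 0.0295 FPKM in control, so HNF4A replicate 1 alone stood apart and the other libraries overlap.

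**Figure D5:**
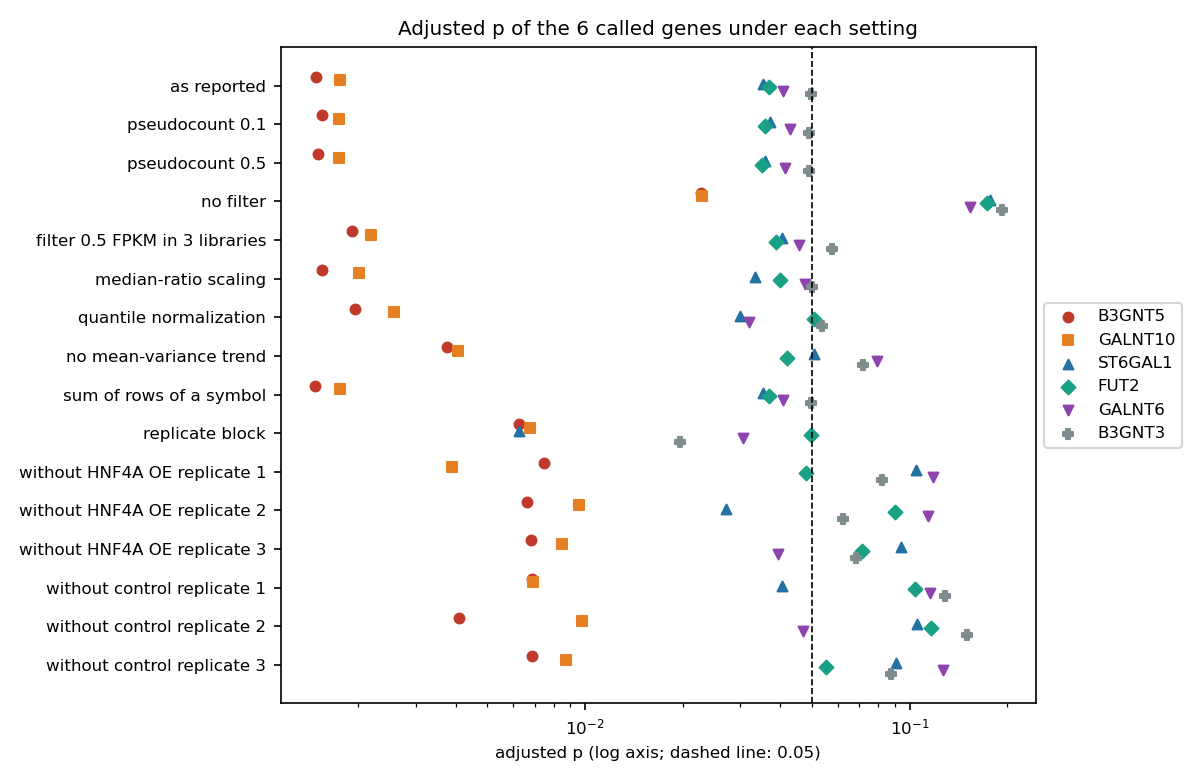
Adjusted p (horizontal axis, log scale, dashed line at 0.05) of the 6 called genes under the reported fit and each of 15 alternatives (rows), with 1 marker per gene. B3GNT5 and GALNT10 stay left of the line in all 15 alternatives, at most at 0.0228 and 0.0230, whereas ST6GAL1, FUT2, GALNT6 and B3GNT3 cross it in several.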

How the data were processed

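Gene expression was read by RNA-seq, and the authors deposited FPKM values for 60694 rows named by gene symbol. Per the submitters' processing notes, TopHat, TopHat2, Bowtie, Bowtie2, Cufflinks, FastQC and the build hg38 were used. Annotation release, settings and strandedness: not given in the sources used here. FPKM keep no counts, so depth is unknown, precision rests on 3 libraries per group, and no counting interval was computed. FPKM also depend on assumed transcript lengths. Groups come from the genotype label, replicate numbers from titles, and 0 sample columns were left unused. The titles number the replicates without saying whether they were separate cultures, so p-values measure the spread between the libraries of a group. A difference between the 2 cell populations cannot be told apart from HNF4A.

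The test was limma 3.58.1 (R 4.3.3; lmFit, then eBayes with trend, group as the only term) on log2(FPKM + 1), for genes at 1 FPKM or more in at least 3 libraries, with Benjamini-Hochberg adjustment over 14106 genes and a threshold of 0.05. A symbol on more than 1 row was represented by its most abundant row. The added 1 shrinks log2 changes of low genes. The code was tested on simulated data. Positions come from GENCODE 29, and figures were drawn with matplotlib 3.10.9. Members and lists were chosen with earlier results of these data known. Named genes are the called members, those with an unadjusted p under 0.05, the 2 most abundant of each family, untested members that reach 0.5 FPKM, members whose call changes under an alternative, and up to 4 called genes of each list. Other genes were named for their role after their values were seen. GFUS was matched through a synonym.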

Additional observations from a re-analysis of the deposited data

How the results depend on the processing

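Alternatives were pseudocounts of 0.1 and 0.5, no filter, a filter at 0.5 FPKM, median-ratio scaling, quantile normalization, no mean-variance trend, summed rows, a replicate block and leaving out each library. The log2 change of HNF4A was 6.52 to 6.86 and passed in all 15. The 6 called members kept their direction in all 15, as did 33 of the 50 tested members. The number of members called higher, 5, was 3 without a filter, 3 with quantile normalization and 3 without the trend, and 2 to 3 when a library was left out. The 3 without a filter were B3GNT5, GALNT10 and GALNT5 (limma adjusted p of 0.0228, 0.0230 and 0.0463). Of these, GALNT5 was not tested in the reported fit, and FUT2, GALNT6 and B3GNT3 were lost. The 1 lower call became 0 without a filter and 0 to 1 when a library was left out. Without the trend it stayed 1 with another gene, MGAT5B (limma adjusted p = 0.0454) in place of ST6GAL1 (0.0507). Over all genes, the 480 higher calls became 201 without a filter, 638 with the replicate block and 274 to 313 with a library left out. The 196 lower calls became 49 without a filter, 399 with the replicate block and 87 to 161 with a library left out. The causes were not tested. The replicate numbers are not shown to pair the samples: deviations of same-numbered libraries correlated at 0.139, 0.0914 and 0.150, although each library correlated best with its own number. With the block 6 members were higher, B4GALT1 now among them (limma adjusted p = 0.0314), and 1 lower. Scaling moved the median change of all genes by -0.01. Depth is unknown, so differences between genes near 0 FPKM were not detectable.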
